A study of Mus musculus with 2 samples.

Results

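The mature neutrophils of the recovering colon were taken as the cells of deposited cluster 6 that held no UMI, or counted RNA molecule, of Camp and Ltf. Camp encodes the granule antimicrobial peptide cathelicidin and Ltf encodes lactoferrin, both made while neutrophils build their secondary granules in the bone marrow. The cells were thus chosen by measured values, the deposited clusters, which rest on many genes, and the counts of Camp and Ltf. The rule found 727 cells of 13492 in all, of which 165 were in the library labelled transgenic and 562 were in the wild type library. Both libraries hold live cells with surface CD45, the protein shared by white blood cells, sorted from colonic lamina propria, the connective tissue under the epithelium, of 8-week-old C57BL/6 mice. The mice had drunk 2% dextran sulphate sodium (DSS), a polymer that injures the colon epithelium, for 7 days and then plain water for 7 days until they were killed on day 14. The library labelled transgenic is described as carrying macrophage-specific overexpression of E4BP4, and its comparison with wild type mice asks what that does to immune cells during recovery. E4BP4 is the protein of the gene Nfil3 and represses or activates genes through D-box DNA sites. The promoter of the transgene and the number of animals in a library are not given in the sources used here. With 1 library per genotype no difference could be tested, so every interval below is an exact 95% interval that covers counting error only.

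Neutrophils are short-lived phagocytes that leave the bone marrow, are drawn into injured tissue through chemokine receptors such as CXCR2, and die there. They make their granule proteins in sequence, primary granules first, then secondary and tertiary granules, so RNA for granule proteins fades as the cells mature. CXCR4 holds neutrophils in the marrow and returns in aged cells, and granulocyte colony-stimulating factor, read through the receptor encoded by Csf3r, drives their production.

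Sequencing gave 58884332 UMIs over 10143 barcodes in the library labelled transgenic and 69346746 UMIs over 9855 barcodes in the wild type library. The deposited cell table covers 7026 and 6466 of these barcodes, and 67 of its barcode sequences occurred in both libraries, 0 of them among the neutrophils. In macrophages (cluster 1) Nfil3 stood at 73.8 CPM in the library labelled transgenic and at 84.4 CPM in the wild type library, where CPM is a gene's summed count as parts of all UMIs of the same cells. Whether transcripts of the transgene would be counted as Nfil3 by 5′ sequencing is not given in the sources used here, so this check of the label is limited. The level does not bear out the label, and each direction below rests on the submitted labels. In the neutrophils Nfil3 stood at 367 CPM (interval 304 to 439) in the library labelled transgenic and at 290 CPM (interval 267 to 315) in the wild type library, a ratio of 1.26 (1.03 to 1.54). After division by the median ratio of all genes with at least 50 UMIs it was 0.923. By the rule given below Nfil3 was called neither higher nor lower.

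The cells carried the markers of their label in both libraries. The deposited clusters chose the cells and rest on many genes, so these values are a description and no independent check. At least 4 of the 6 identity markers S100a9, S100a8, Retnlg, G0s2, Csf3r and Cxcr2 were found in 151 of the 165 neutrophils of the library labelled transgenic (91.5%, interval 86.2 to 95.3) and in 527 of the 562 of the wild type library (93.8%, interval 91.4 to 95.6). Among all other cells of the table this held for 5 of 6861 in the library labelled transgenic and for 114 of 5904 in the wild type library. In the B cell cluster it held for 0 of 2236 cells (interval up to 0.165%) and for 2 of 2410. A finer deposited clustering put 98.8% of the neutrophils of the library labelled transgenic and 98.4% of those of the wild type library in a single cluster.

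S100a9 and S100a8 encode the subunits of calprotectin, the calcium-binding protein that fills neutrophil cytosol. S100a9 reached 58651 CPM in the neutrophils of the library labelled transgenic, against 21.5 CPM in its other cells, and 124728 CPM in those of the wild type library, against 5200 CPM in its other cells. Together the pair made up 9.08% of neutrophil UMIs in the library labelled transgenic and 20.3% in the wild type library. Retnlg, a resistin-like secreted protein of mouse neutrophils, stood at 4483 CPM against 1.68 CPM in the other cells of the library labelled transgenic, and at 21184 CPM against 816 CPM in the other cells of the wild type library. Each marker named here was far more abundant in the neutrophils than in the rest. These gaps come from the clusters that chose the cells and are given as a description. The rest of the wild type library includes 86 further cells of cluster 6. Neutrophil RNA in other cell types was also more frequent there: with cells thinned to 500 UMIs, S100a9 was found in 0.894% of B cells of the library labelled transgenic and in 12.4% of those of the wild type library, against 94.5% and 98% of neutrophils. Its part in the results was not tested.

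**Figure D1:**
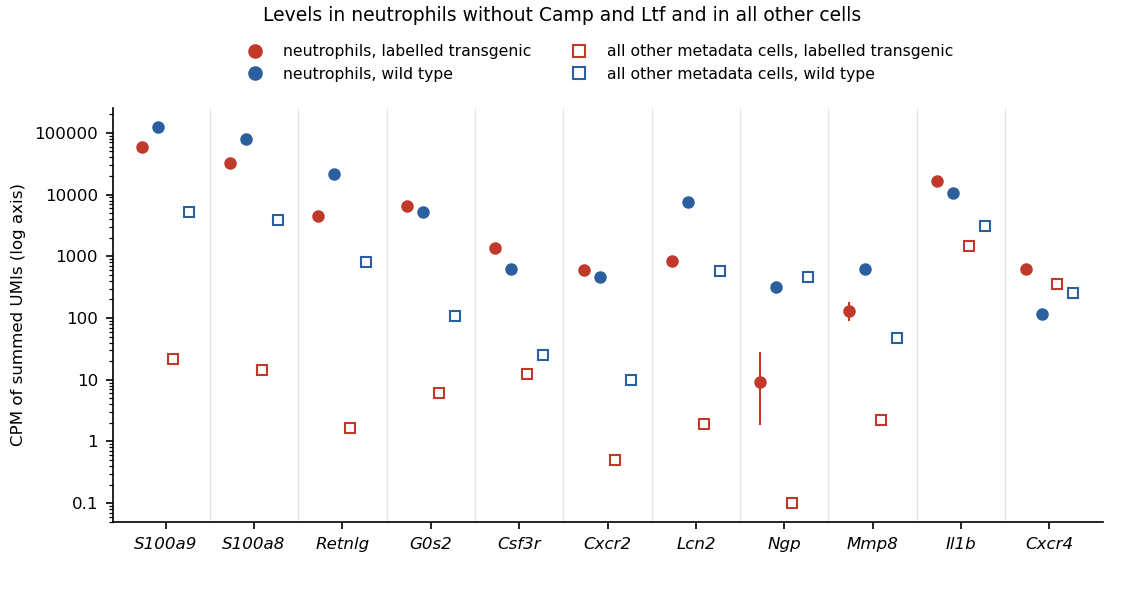
Level of 11 genes (CPM, log axis) in the neutrophils of the library labelled transgenic and of the wild type library (filled circles with exact Poisson 95% intervals) and in all other cells of the same library (open squares); Ngp, at 0 in the other cells of the library labelled transgenic, is drawn at 0.1. S100a9 stood at 58651 CPM in the neutrophils of the library labelled transgenic and at 124728 CPM in those of the wild type library, and Cxcr4 at 624 and 118 CPM.

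These cells were scarcer in the library labelled transgenic. They made up 2.35% of its cells (165 of 7026, interval 2.01 to 2.73) and 8.69% of the cells of the wild type library (562 of 6466, interval 8.02 to 9.40), a ratio of 0.270 (0.226 to 0.322). The CD45 sort and the deposited cell filter set both denominators. Of all cells of cluster 6, the rule kept 165 of 167 in the library labelled transgenic (98.8%, interval 95.7 to 99.9) and 562 of 648 in the wild type library (86.7%, interval 83.9 to 89.2). With each cell thinned to 500 UMIs, so that Camp and Ltf could be found equally often at a given level, these shares were 98.8% and 92.9%. Neutrophils that also held no UMI of the granule genes Ngp and Lcn2 numbered 93 or 1.32% of the library labelled transgenic and 54 or 0.835% of the wild type library, a ratio of 1.58 (1.12 to 2.26). A count of 0 UMIs is met more often in shallower cells, and these cells were shallower in the library labelled transgenic. With each cell of cluster 6 thinned to 500 UMIs, a check added after seeing the data, cells with none of the 4 genes numbered 123 (1.75%) in the library labelled transgenic and 134 (2.07%) in the wild type library, a ratio of 0.845 with an interval of 0.656 to 1.09 that spans 1.

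The neutrophils of the library labelled transgenic also held fewer molecules per cell. Their median was 1742 UMIs (quartiles 1329 and 2269, range 518 to 6284), against 3362.5 UMIs (range 500 to 10790) in the wild type library, while the medians of all other cells were 2452 and 2646 UMIs. They held a median of 730 genes per cell in the library labelled transgenic and 897 in the wild type library. Median mitochondrial shares were 0.130% and 0.111% of UMIs, against 1.09% and 0.891% in all other cells. In sum 326813 UMIs in the library labelled transgenic are set against 2000472 UMIs in the wild type library, so levels in the library labelled transgenic are the less precise ones. Values called thinned below are shares of cells with a UMI of a gene at 500 UMIs per cell, a depth that every neutrophil reached.

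**Figure D2:**
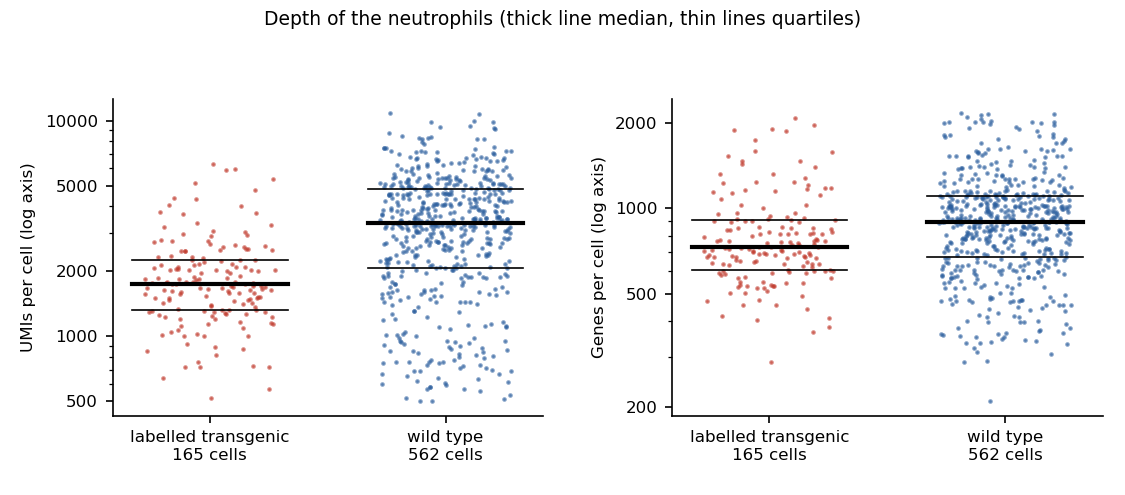
UMIs per cell (left, log axis) and genes per cell (right) of each neutrophil in the library labelled transgenic and in the wild type library, 1 point per cell, with lines at the median and quartiles. The median was 1742 UMIs in the library labelled transgenic and 3362.5 UMIs in the wild type library, and the ranges overlapped.

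The cut at 0 UMIs divides a gradient. In the wild type library, Ngp, encoding neutrophilic granule protein, stood at 316 CPM in the 562 cells with no Camp or Ltf UMI, at 1807 CPM in the 30 cells with 1 such UMI and at 21215 CPM in the 56 cells with more. Lcn2, encoding the iron-chelator-binding protein lipocalin of secondary granules, stood at 7581, 13497 and 18253 CPM in the same cells, and Cxcr4 at 118, 70.8 and 23.0 CPM. Median depth was 3362.5, 4947.5 and 6495 UMIs in these cells. The library labelled transgenic had only 2 cells of cluster 6 beyond the cut, and Ngp, Lcn2 and Retnlg were at 0 in them.

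Within the wild type library the neutrophils with no Camp or Ltf UMI could be set against the 86 other cells of cluster 6, which share their library. A gene counted as higher or lower here and below when it had at least 50 UMIs over the cells compared and differed 1.5-fold or more, both as a CPM ratio and after division by the median ratio of all such genes. Of 3257 genes 16.4% were higher and 5.83% lower. Csf3r (ratio 2.20), Cxcr4 (3.31), the inflammatory cytokine gene Il1b (2.19), the prostaglandin synthase gene Ptgs2 (2.25) and Nfil3 (2.15) were higher, while S100a8 (0.643), Lcn2 (0.446), the collagenase gene Mmp8 (0.497) and Ngp (0.0197) were lower. Ly6g (0.812) and the chemokine-like gene Prok2 (0.945) were neither. Cxcr4 had only 19 UMIs in the 86 cells. Most of the called markers of other cell types were higher. Among them were Cd79a of B cells (8.02), C1qc of macrophages (15.8) and H2-Eb1 of dendritic cells (8.88). Jchain of plasma cells (1.95) and Lgals4 of epithelium (2.30) were higher too, and only Cd63 (0.484) and Ly6c2 (0.390) were lower. The part of such RNA in these ratios was not tested. Camp and Ltf chose these cells and are no result.

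Between the libraries the neutrophils differed broadly. Of 3363 genes with at least 50 UMIs over both libraries, 649 (19.3%) were higher in the library labelled transgenic and 370 (11%) were lower. The interval of the ratio lay above 1 for all 649 higher genes and below 1 for 257 of the 370 lower genes. The median ratio of all these genes was 1.37, or 0.45 on the log2 scale, and 73.2% of the genes lay above 1. The 20 most abundant genes held 27.2% of UMIs in the library labelled transgenic and 42.6% in the wild type library. A gene named higher or lower below passed with and without this shift.

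**Figure D3:**
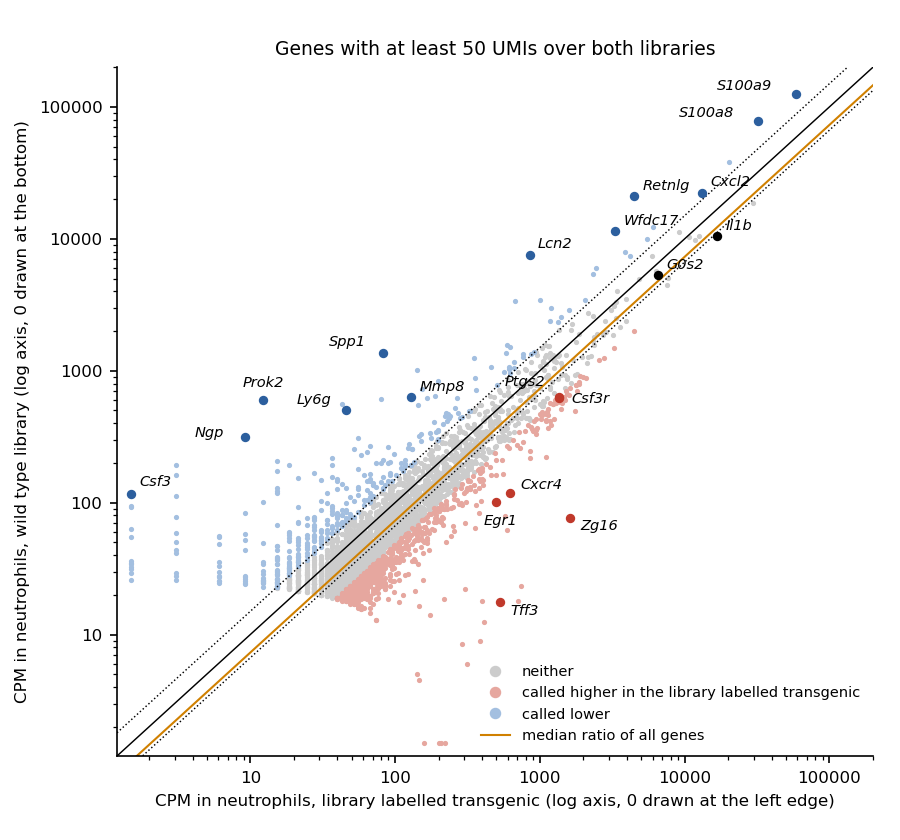
Level of each gene in the neutrophils of the library labelled transgenic (x axis, CPM, log) against the wild type library (y axis, CPM, log), 1 point per gene with at least 50 UMIs; dotted lines mark 1.5-fold and the orange line marks the median ratio of 1.37. Higher genes numbered 649 and lower genes 370 of 3363, with Lcn2, Ngp and Prok2 among the lower and Cxcr4 and Egr1 among the higher.

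RNA for granule proteins was lower in the library labelled transgenic. Of the 6 secondary granule genes with at least 50 UMIs, 0 were higher and 4 were lower (Ngp, Lcn2, Cd177 and Anxa1), against 19.3% higher and 11% lower over all genes. Fewer of these genes could be called in smaller sets of cells: 1 of 3 was lower in cells of 1000 to 2500 UMIs, and 0 of 2 in cells with no Ngp or Lcn2 UMI. Ngp had 3 UMIs in the library labelled transgenic (9.18 CPM) and 633 in the wild type library (316 CPM), a ratio of 0.0290 (0.00597 to 0.0852). Lcn2 had 278 UMIs (851 CPM) in the library labelled transgenic and 15165 UMIs (7581 CPM) in the wild type library, a ratio of 0.112 (0.0993 to 0.126). A Lcn2 UMI was found in 26.7% of thinned cells of the library labelled transgenic and in 77.4% of those of the wild type library, against none and 0.830% of B cells. Cd177, which encodes a surface protein of neutrophil subsets, had 5 UMIs in the library labelled transgenic and 416 in the wild type library, and Anxa1, encoding the resolution-linked annexin, had a ratio of 0.429. The median log2 ratio of the list was -1.22 over 7 genes with at least 20 UMIs, against 0.57 over all 5670 such genes. The thinned cells held a median of 1 UMI of the list in the library labelled transgenic and 4 in the wild type library, with upper quartiles of 2 and 6.

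Tertiary granule and secretory vesicle genes followed the same direction. Of 12 genes 8 were lower and 1 was higher, against 11% lower and 19.3% higher over all genes. The higher one was Cst3, encoding the protease inhibitor cystatin C, at a ratio of 2.5. Cst3 is also a marker of dendritic cells, whose summed markers stood at 9666 CPM in the neutrophils of the library labelled transgenic and at 4058 CPM in those of the wild type library, and the part of such RNA in its ratio was not tested. Mmp8 stood at 129 CPM in the library labelled transgenic and at 632 CPM in the wild type library (ratio 0.203, interval 0.146 to 0.277), and Fpr1, the receptor for formylated bacterial peptides, at 199 and 831 CPM (ratio 0.239). Olfm4 and Mmp25 had only 2 and 7 UMIs in the library labelled transgenic. Mmp9, the gelatinase of tertiary granules, was not called, at 603 CPM in the library labelled transgenic and 849 CPM in the wild type library. Of the primary granule genes 1 had at least 50 UMIs, and it was not called.

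Some other genes of circulating mouse neutrophils were lower as well. Ly6g, the surface protein used to sort mouse neutrophils, had 15 UMIs in the library labelled transgenic and 1003 in the wild type library, a ratio of 0.0915 (0.0510 to 0.152). A Ly6g UMI was found in 3.03% of thinned cells of the library labelled transgenic and in 17.6% of those of the wild type library. Prok2, a chemokine-like secreted peptide of neutrophils, had 4 and 1210 UMIs, a ratio of 0.0202 (0.00550 to 0.0519). Of the 23 late maturation genes 1 was higher, 5 were lower and 17 were not called, against 19.3% higher and 11% lower over all genes. The lower ones were the whey acidic protein gene Wfdc17 (ratio 0.288), the skin and neutrophil protease gene Asprv1 (0.406), the stefin gene Stfa2 (0.0956), Ifitm1 and Mmp8. Stfa2 and Ifitm1 have close paralogs, so their counts are uncertain. Of the identity markers Retnlg (ratio 0.212, interval 0.201 to 0.223), S100a8 (0.409) and S100a9 (0.470) were lower, G0s2 (1.25) and Cxcr2 (1.28) were not called, and Csf3r was higher. Of 23 adhesion and migration genes 2 were higher and 3 were lower, against the same 19.3% and 11% over all genes. Itgam, encoding an integrin chain of neutrophils, was not called at 0.994.

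Granule and neutrophil genes are textbook targets of C/EBP factors, and E4BP4 binds a related D-box site, so the 250 bases before each RefSeq start were searched on both strands for the C/EBP letters TTGCNNAA and the E4BP4 letters TTANNTAA. Ngp, Mmp8, Retnlg and Ly6g, which were lower and hold a C/EBP match, and Cxcr4, which was higher and holds none, are printed 5′ to 3′ on the gene's strand, from RefSeq on build GRCm38.p6 and ending before any annotated exon, with the C/EBP match in capitals.
Ngp, chr9:110419558-110419746, plus strand: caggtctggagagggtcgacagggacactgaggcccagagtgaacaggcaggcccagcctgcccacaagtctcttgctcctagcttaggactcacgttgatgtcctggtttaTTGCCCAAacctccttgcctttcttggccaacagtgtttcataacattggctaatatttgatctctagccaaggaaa
Mmp8, chr9:7558179-7558428, plus strand: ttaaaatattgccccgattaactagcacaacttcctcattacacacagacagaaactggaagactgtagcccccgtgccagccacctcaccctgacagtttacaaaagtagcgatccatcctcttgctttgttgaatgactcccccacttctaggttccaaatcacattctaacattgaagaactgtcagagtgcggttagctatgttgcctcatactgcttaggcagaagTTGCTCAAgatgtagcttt
Retnlg, chr16:48872358-48872607, plus strand: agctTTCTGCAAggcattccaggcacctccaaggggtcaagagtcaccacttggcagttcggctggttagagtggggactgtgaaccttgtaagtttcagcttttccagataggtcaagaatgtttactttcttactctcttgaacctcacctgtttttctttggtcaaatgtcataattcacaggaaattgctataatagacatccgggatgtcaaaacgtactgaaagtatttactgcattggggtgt
Ly6g, chr15:75155011-75155239, plus strand: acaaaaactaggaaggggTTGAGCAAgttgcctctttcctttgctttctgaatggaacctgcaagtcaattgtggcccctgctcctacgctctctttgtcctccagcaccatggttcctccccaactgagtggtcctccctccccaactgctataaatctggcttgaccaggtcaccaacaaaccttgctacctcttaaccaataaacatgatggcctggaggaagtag
Cxcr4, chr1:128592300-128592549, minus strand: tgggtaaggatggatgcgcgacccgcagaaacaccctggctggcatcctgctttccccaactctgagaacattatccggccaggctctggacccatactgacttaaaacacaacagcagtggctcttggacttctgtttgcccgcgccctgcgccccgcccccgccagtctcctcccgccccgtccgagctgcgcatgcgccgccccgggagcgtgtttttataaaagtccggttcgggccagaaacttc
The matches lie 138 to 131 bases before the RefSeq start of Ngp, 19 to 12 before that of Mmp8, 246 to 239 before that of Retnlg and 232 to 225 before that of Ly6g, and Ngp has a further match nearer its start. A C/EBP match was in 9.55% of 27025 promoters, in 8.58% of those of 2634 tested genes, in 8.85% of those of 497 higher genes and in 12.2% of those of 287 lower genes. The E4BP4 letters were in 5.55% of all promoters, 3.34% of those of tested genes, 1.81% of those of higher genes and 6.62% of those of lower genes. Both motifs were thus in a larger share of the promoters of lower genes than of higher genes, and this is a description of letters, not of bound sites. Lcn2 and S100a9, which were lower, and Ptgs2, which was higher, also hold the C/EBP letters. The lower genes S100a8, Cd177, Prok2 and Spp1 and the higher genes Csf3r and Fgl2 do not in this window. The printed genes thus do not stand for all called genes. The E4BP4 letters were in none of the windows of the genes named here.

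Among receptor genes, Cxcr4 and Csf3r were higher. Of 29 chemoattractant and growth factor receptor genes 5 were higher (Cxcr4, Csf3r, Il17ra, Tgfbr1 and Tgfbr2) and 2 were lower (Fpr1 and Csf2rb2, the second with an interval that spans 1), counts near the 19.3% and 11% of all genes. Cxcr4 had 204 UMIs (624 CPM, interval 541 to 716) in the library labelled transgenic and 236 UMIs (118 CPM, interval 103 to 134) in the wild type library, a ratio of 5.29 (4.37 to 6.41). A Cxcr4 UMI was found in 24.8% of thinned neutrophils of the library labelled transgenic and in 6.23% of those of the wild type library. B cells carry CXCR4 themselves, at 22.0% and 17.7%, and so give no background for it. The CPM of Cxcr4 was higher in the library labelled transgenic in each of the 10 deposited clusters, for example at 602 against 433 CPM in macrophages and at 355 against 197 CPM in the monocytes of cluster 3. Csf3r, the receptor for granulocyte colony-stimulating factor, stood at 1352 CPM (interval 1229 to 1485) in the library labelled transgenic and at 632 CPM (interval 597 to 668) in the wild type library, a ratio of 2.14 (1.92 to 2.39). Its UMIs were found in 49.7% and 29.5% of thinned cells, and in none and 0.0415% of B cells. The interleukin 1 decoy receptor Il1r2 (ratio 1.07) and the complement receptor C5ar1 (0.718) were not called.

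Cytokine and chemokine genes were called in both directions. Of 19 with at least 50 UMIs, 4 were higher and 9 were lower in the library labelled transgenic. Over all genes 19.3% were higher and 11% lower, so the count of higher genes was near that share. Il1b stood at 16780 CPM in the library labelled transgenic and at 10499 CPM in the wild type library, a ratio of 1.60 that was 1.17 after division by the median, so it was not called, and 96.4% and 92.7% of thinned cells held it. Il1a, encoding the cell-bound form of interleukin 1, had 14 UMIs in the library labelled transgenic and 1124 in the wild type library (ratio 0.0762, interval 0.0415 to 0.128), and the receptor antagonist gene Il1rn stood at 349 and 1249 CPM (ratio 0.279). The chemokine genes Cxcl2 (ratio 0.584), Cxcl3 (0.290), Cxcl1 (0.110), Ccl3 (0.378) and Ccl4 (0.429) were lower, the CXCL genes among them encoding neutrophil attractants. In the library labelled transgenic 5 cells held 74.2% of the Ccl4 UMIs, so its level there rests on few cells. Tnf, with 30 UMIs in the library labelled transgenic and 404 in the wild type library, was lower at 0.455 (0.303 to 0.659). Csf1, the macrophage colony-stimulating factor, was higher at 364 CPM in the library labelled transgenic against 96.0 CPM in the wild type library, and the scavenger chemokine gene Cxcl16 was higher at 2.62. Ccl5 and Ccl2 were higher too, but 5 cells held 84.3% and 89.5% of their UMIs in the library labelled transgenic. Osm, the oncostatin M gene linked to colitis in mice, was not called (ratio 1.96, and 1.43 after division by the median).

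Genes of tissue repair and growth factors leaned lower. Of 12 genes 8 were lower and 0 were higher, against 11% lower and 19.3% higher over all genes. The median log2 ratio of the list was -1.22 over 14 genes with at least 20 UMIs, against 0.57 over all 5670 such genes. Spp1, encoding osteopontin, had 27 UMIs in the library labelled transgenic (82.6 CPM), 96.3% of them in 5 cells, and 2740 UMIs in the wild type library (1370 CPM), a ratio of 0.0603 (0.0397 to 0.0880). Lgals3, encoding galectin 3 (0.502), Thbs1, encoding thrombospondin (0.432), and Vegfa, the vascular growth factor gene with 4 and 71 UMIs (0.345, interval 0.0915 to 0.922), were also lower. Csf3, Serpinb2 and Nos2, named by their rank, had no UMI in the library labelled transgenic. Csf3, the gene for granulocyte colony-stimulating factor, had 0 UMIs there and 231 in the wild type library. With 3 counts put in for the 0, it was 12.6-fold lower, a value set by that choice and not a bound. With the same 3 counts put in, Serpinb2, a plasminogen activator inhibitor (0 and 189 UMIs), was 10.3-fold lower. Nos2, the inducible nitric oxide synthase (0 and 185 UMIs), was 10.1-fold lower in the same way. Acvrl1, a receptor of the bone morphogenetic protein family, had 1 UMI in the library labelled transgenic and 226 in the wild type library.

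The oxidative, glycolysis and iron lists each held more genes called lower than higher, against 19.3% higher and 11% lower over all genes. The median log2 ratio of the oxidative list was 0.04 over 15 genes with at least 20 UMIs, and 9 of its 14 genes with at least 50 UMIs were not called. The NADPH oxidase subunit gene Cybb was not called (ratio 1.02) and neither was Cyba (1.22). Sod2, the mitochondrial superoxide dismutase (0.178), Acod1, which makes itaconate (0.396), and Nos2 were among the 5 of 14 genes of the oxidative list that were lower. Of 27 glycolysis and hypoxia genes 12 were lower, 11 of them with an interval below 1, and 1 was higher. Pgk1 (0.491), Ldha (0.599), Gapdh (0.574), Pkm (0.570) and Tpi1 (0.455) encode steps of glycolysis, and the uridine phosphorylase gene Upp1 stood at 0.293. The glycolysis list had a median log2 ratio below that of all genes in the neutrophils and in the 3 other clusters examined, at -0.40 in the neutrophils, -0.97 in the monocytes of cluster 3, -0.49 in macrophages and -0.29 in B cells, where the medians of all genes were 0.57, 0.08, -0.04 and 0.02. Of 11 iron genes 6 were lower. Fth1, encoding the ferritin heavy chain, stood at 20409 CPM in the library labelled transgenic and at 38200 CPM in the wild type library (ratio 0.534), and Hmox1, encoding haem oxygenase, had a ratio of 0.392.

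Immediate-early and stress genes were higher. Over all genes 19.3% were higher and 11% were lower. Of 24 genes of the list for cell dissociation and stress, 10 were higher and 0 were lower. Of the 26 with at least 20 UMIs, 26 had a ratio above 1, as did 4304 of all 5670 such genes. Egr1, a zinc finger transcription factor induced within minutes of stimulation, stood at 496 CPM (interval 422 to 578) in the library labelled transgenic and at 101 CPM (interval 88.0 to 116) in the wild type library, a ratio of 4.88 (3.95 to 6.04). Atf3 (3.46), Fosb (3.39), Fos (2.22), Jun (2.36), Jund (2.42), Nr4a1 (2.39) and the antiproliferative gene Btg2 (2.32) were higher as well. The thinned cells held a median of 12 UMIs of this list in the library labelled transgenic and 6 in the wild type library, with quartiles of 8 and 16 against 4 and 9. In the monocytes of cluster 3 the median log2 ratio of the list was 0.70, in macrophages 0.26 and in B cells -0.11, against 1.01 in the neutrophils. Tissue digestion is known to induce these genes, and its part in the difference was not tested. Fosl1, another AP-1 subunit gene, was lower, with 5 and 236 UMIs. Of 29 transcription factor genes 10 were higher and 2 were lower, in part the genes just named, while Cebpb (1.06) and Mxd1 (1.03), a repressor of proliferation in mature neutrophils, were not called. Per1, a repressor of the circadian clock, was higher at 2.40.

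Among the other genes named by their rank, Fgl2 and Ccnd2 were higher without belonging to a list. Fgl2, encoding a fibrinogen-like immune regulator and prothrombinase, stood at 382 CPM in the library labelled transgenic and at 84.0 CPM in the wild type library, a ratio of 4.55 (3.58 to 5.78). A Fgl2 UMI was found in 19.4% and 2.85% of thinned neutrophils, and in 0.268% and 0.332% of B cells. Ccnd2, encoding a D-type cyclin, had 37 and 40 UMIs, a ratio of 5.66 (3.52 to 9.08). Tnfaip2, a gene induced by tumour necrosis factor, belongs to the NF-kappaB response list and was higher too. Tnfaip2 stood at 1196 CPM in the library labelled transgenic and at 388 CPM in the wild type library. It was found in 45.5% of thinned neutrophils of the library labelled transgenic and in 14.8% of those of the wild type library.

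Inflammatory, interferon and survival lists each held genes called in both directions, against 19.3% higher and 11% lower over all genes. Of 25 NF-kappaB response genes 2 were higher and 4 lower, with the inhibitor gene Nfkbia not called at 0.851. Of 23 interferon response genes 3 were higher (Bst2, Gbp2 and Slfn5) and 3 were lower, 1 of these with an interval below 1. Isg15, the ubiquitin-like interferon-induced gene, stood at 1050 CPM in the library labelled transgenic and at 589 CPM in the wild type library, a ratio of 1.78 (1.57 to 2.01) that fell short of a call after division by the median, at 1.30. Ifit1 had 7 and 38 UMIs, too few for a call. Among 18 survival genes Bcl2a1b (2.52, with close paralogs), Bax (2.20) and Pmaip1 (2.06) were higher and Cflar, encoding a caspase inhibitor, was lower at 0.437, while the survival gene Mcl1 was not called (1.57). Of 5 eicosanoid genes Ptgs2, encoding the inducible prostaglandin synthase, was higher at 1349 CPM in the library labelled transgenic against 620 CPM in the wild type library, and Alox5ap, which serves leukotriene synthesis, was lower at 0.595. Of 26 pattern recognition and Fc receptor genes 1 was higher and 3 were lower, among them Cd14, the lipopolysaccharide co-receptor gene, at 2445 CPM in the library labelled transgenic against 5993 CPM in the wild type library, and Trem1 (0.799) was not called. Of 8 checkpoint genes 0 were higher and 2 were lower, among them the ligand gene Cd274, at 64.3 CPM in the library labelled transgenic and 125 CPM in the wild type library (interval of the ratio 0.312 to 0.800). Siglecf, reported on neutrophils of some mouse tissues, had 2 and 32 UMIs. Of 11 mitochondrial genes 0 were called.

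**Figure D4:**
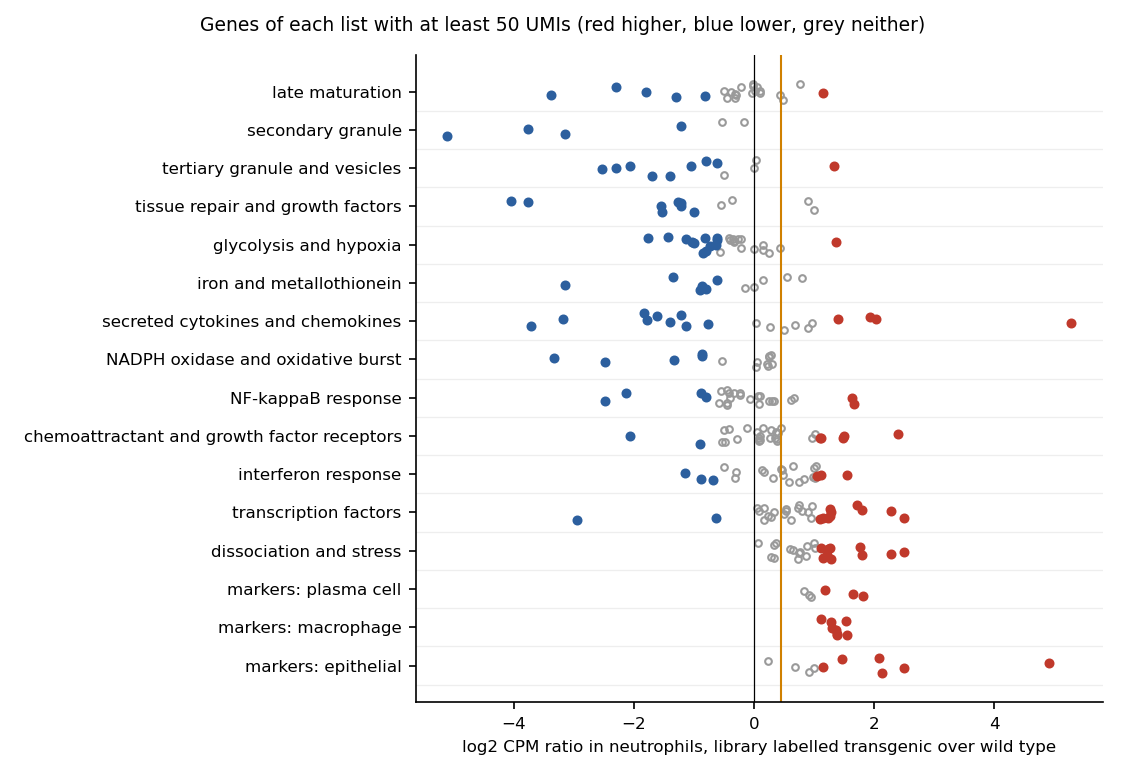
Log2 ratio (library labelled transgenic over wild type) of each gene in the neutrophils, 1 point per gene and 1 row per gene list; red points were higher, blue points lower and grey points neither, and the orange line marks the median of all genes. The secondary granule list has 4 lower genes and 0 higher, and the dissociation and stress list 10 higher and 0 lower. Over all genes 19.3% were higher and 11% lower.

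RNA of other cell types also differed between the neutrophils of the libraries. Summed markers of plasma cells stood at 5202 CPM in the library labelled transgenic and 1924 CPM in the wild type library, those of macrophages at 2772 and 1012 CPM, of dendritic cells at 9666 and 4058 CPM, of epithelium at 2209 and 773 CPM, of T cells at 373 and 43.5 CPM, of B cells at 805 and 450 CPM, and of mast cells and basophils at 300 and 47.5 CPM. Markers of monocytes (1255 and 1193 CPM) differed little, and those of eosinophils (15.3 and 18.0 CPM) were near 0. Against 19.3% higher over all genes, 8 of 8 macrophage markers with at least 50 UMIs were higher. So were 6 of 6 dendritic cell, 6 of 10 epithelial and 3 of 6 plasma cell markers. Their part in the results above was not tested beyond the values that follow. A few cells carried part of this RNA: of 1001 UMIs of the goblet cell genes Fcgbp, Tff3, Clca1, Zg16 and Spink1 in the library labelled transgenic 841 were in 1 cell, and the 52 UMIs of Prss34, a basophil protease gene, were all in 1 cell. All 6 genes were among the 10 ranked highest, with ratios such as 21.0 for Zg16, 30.3 for Tff3 and 32.8 for Fcgbp. Without the 10% of cells in each library with the most such RNA, which left 148 and 505 cells, a choice made after seeing the data, 567 genes were higher and 356 lower, Cxcr4 stood at 6.68 and Lcn2 at 0.118. The goblet cell genes dropped to 3.49 for Zg16, 5.64 for Tff3 and 2.89 for Fcgbp in these cells.

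For several genes the ratios lay nearer 1 among cells with no UMI of Ngp or Lcn2. Of the neutrophils 72 in the library labelled transgenic and 508 in the wild type library held a UMI of Ngp or Lcn2, and 93 and 54 held neither, with median depths of 1583 and 1584.5 UMIs in those. Among cells with neither, the ratio of S100a9 was 1.07 (1.03 to 1.12), of S100a8 0.889, of Egr1 1.17 (0.800 to 1.75), of Il1rn 0.930 and of Ptgs2 1.14. Among cells with Ngp or Lcn2 the same ratios were 0.579, 0.506, 5.23, 0.196 and 1.86. Egr1 and Ptgs2 thus lay above 1 in both kinds of cell, and S100a8 and Il1rn below 1. Cxcr4 also lay above 1 in both, at 1.77 (1.22 to 2.63) in cells with neither and 4.65 (3.53 to 6.08) in cells with Ngp or Lcn2. Csf3r did so too, at 1.5 (1.15 to 1.99) and 2.28 (1.97 to 2.63). Further ratios below 1 in both included those of Retnlg, at 0.721 and 0.276, and Wfdc17, at 0.492 and 0.281. They also included Cxcl2, at 0.541 and 0.707, Ccl3, at 0.399 and 0.0782, and Il1a, at 0.129 and 0.0767. Among cells with neither, 134 of 720 genes were higher and 84 lower. Whether these ratios differ between the subsets was not tested.

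In both libraries Cxcr4 was found in a smaller share of cells with Lcn2 RNA than without it. A Cxcr4 UMI was found in 7 of 44 thinned cells with Lcn2 (15.9%) and in 34 of 121 without it (28.1%) in the library labelled transgenic. In the wild type library it was found in 16 of 435 with Lcn2 (3.68%) and in 19 of 127 without it (15%). In either kind of cell the share was larger in the library labelled transgenic. The counts are small, and neither difference was tested.

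Depth was also matched by taking cells of 1000 to 2500 UMIs, a choice made after seeing the data that left 118 cells in each library. There Lcn2 had a ratio of 0.171, Retnlg 0.473 and S100a9 0.759, Csf3r had 2.22, Cxcr4 3.64 (2.55 to 5.29), Egr1 2.76 and Isg15 2.43. Each of these kept its direction. Split into 4 ranges of UMIs, the CPM of Lcn2 and Retnlg was lower and that of Csf3r higher in the library labelled transgenic in every range. The CPM of Cxcr4 was higher in 3 ranges and lower in that of 500 to 1000 UMIs, at 205 CPM in 13 cells of the library labelled transgenic and 307 CPM in 61 cells of the wild type library.

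**Figure D5:**
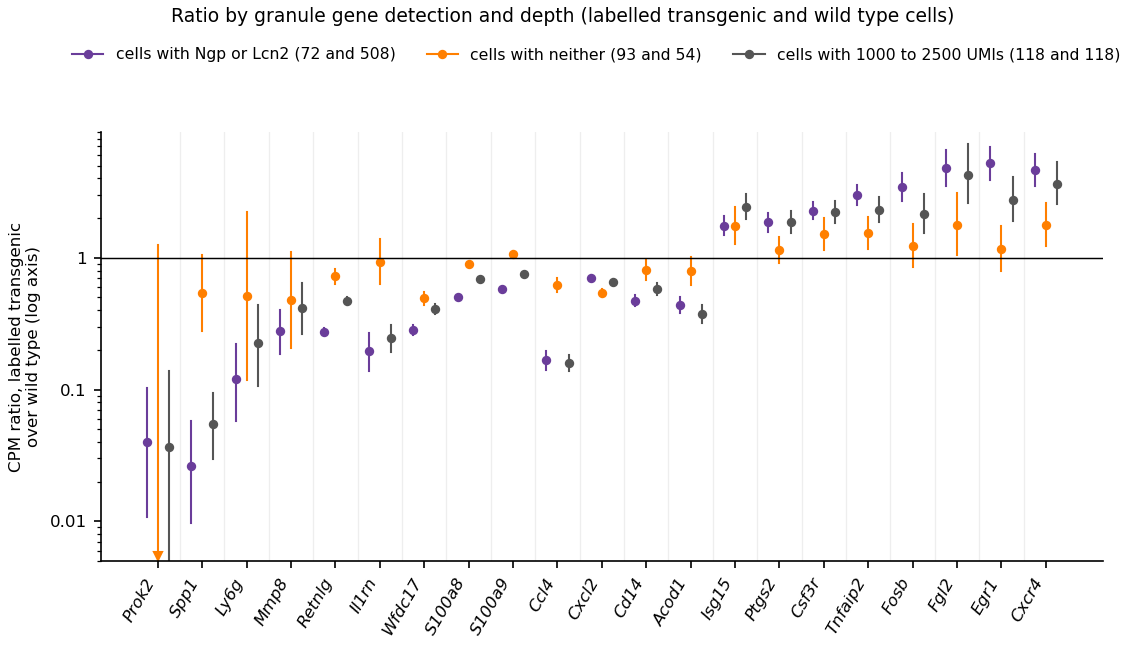
Ratio of CPM (library labelled transgenic over wild type, log axis) with exact 95% intervals for named genes in neutrophils with a UMI of Ngp or Lcn2 (72 and 508 cells), with neither (93 and 54 cells) and with 1000 to 2500 UMIs (118 and 118 cells); a triangle marks 0 UMIs in the library labelled transgenic. Cxcr4 lay above 1 in all 3 sets of cells, and Egr1 and S100a9 lay near 1 in cells with neither.

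Set beside the monocytes of cluster 3, where 9.67% of 7392 genes were higher and 7.87% lower in the library labelled transgenic, the neutrophils shared some directions and not others. Egr1 had a ratio of 4.88 in neutrophils and 3.98 (3.36 to 4.72) in monocytes, Fgl2 4.55 and 2.73, Cd14 0.408 and 0.386, and Spp1 0.0603 and 0.0266. Ratios went opposite ways for Tnf, at 0.455 in neutrophils and 1.72 (1.43 to 2.08) in monocytes, and for Ptgs2, at 2.18 and 0.567 (0.528 to 0.608). In the few neutrophils with no lineage marker UMI, 7 and 32 cells, the ratio of Tnf was 2.16, and in those with neither Ngp nor Lcn2 that of Ptgs2 was 1.14. Csf3r was higher in neutrophils and stood at 1.07 (0.822 to 1.38) in monocytes. The differences between the cell types were not tested.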

How the data were processed

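A library per genotype of sorted live CD45+ colon cells was made with 10x Genomics 5′ chemistry, per the labels' protocols. The authors deposited UMI counts for 32285 genes per barcode, and a cell table with library name, cluster number and percent of UMIs from mitochondrial genes, per the file headers. Cell Ranger 5.0.0, Seurat 4.0 and mm10 are named in the submitters' processing notes. Aligner and cell filter settings are not given in the sources used here. UMI sums were taken from the count tables. The cell table's own sums differed from these by up to 58 in the library labelled transgenic and 12 in the wild type library. Of symbols, 38 occur more than once, and the first identifier was used. Column names of other samples numbered 0.

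Counts were summed over cells and divided by totals to give CPM. Levels have exact Poisson, ratios exact conditional binomial and shares exact Clopper-Pearson 95% intervals. UMIs remove PCR copies, and the intervals cover counting error only, not animals. A gene was called at 50 UMIs and 1.5-fold on both scalings, and list medians used 20 UMIs. Thinning drew 500 UMIs per cell (seed 1). No doublet caller was run; cells rich in RNA of other types were left out in alternatives. The calls and ratio intervals were tested on simulated Poisson counts with known ratios, which held no spread between cells. Thinning was checked on the wild type neutrophils, and the other steps were not simulated.

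Named genes were a list of granule, receptor, cytokine and other genes always given, the 10 highest-ranked each way by the interval bound nearest to 1, and up to 4 called and 4 abundant genes of each list. Ranking left out immunoglobulin, T cell receptor, haemoglobin, mitochondrial, ribosomal and predicted genes, and genes that free RNA could give, with under 0.1 of the CPM of another cluster. Some list members printed beyond these, such as Jun, Gapdh and Cxcl3, were chosen after their values were seen. The neutrophils and the gene lists were chosen with earlier results of these data known. Alternatives were other scalings, minimums and folds, means of single-cell CPM, other cell subsets, thinning and other denominators. Promoters came from RefSeq (GRCm38.p6). Python 3.11.15, numpy 2.4.6, scipy 1.17.1, pandas 2.3.3 and matplotlib 3.10.9 were used.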

Additional observations from a re-analysis of the deposited data

Results flagged for a closer look

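A pair of genes went opposite ways in neutrophils and in the monocytes of cluster 3. Tnf had a ratio of 0.455 (0.303 to 0.659) in neutrophils and 1.72 (1.43 to 2.08) in monocytes, and Ptgs2 had 2.18 (1.95 to 2.43) in neutrophils and 0.567 (0.528 to 0.608) in monocytes. Both intervals of each gene lay on opposite sides of 1, and the difference between the cell types was not tested. The neutrophil level of Tnf in the library labelled transgenic rests on 30 UMIs, 56.7% of them in 5 cells. Over the alternatives the neutrophil ratio of Tnf lay between 0.202 and 2.16, the highest in the 7 and 32 cells with no UMI of 12 lineage markers, and that of Ptgs2 between 1.14 in cells with neither Ngp nor Lcn2 and 2.57.

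Barcodes that the deposited cell table leaves out also held neutrophil RNA. At least 4 of the 6 identity markers and no Camp or Ltf UMI were found in 21 of 3117 such barcodes of the library labelled transgenic (0.674%, interval 0.418 to 1.03) and in 76 of 3389 of the wild type library (2.24%, interval 1.77 to 2.80). Their median depths were 8063 and 12675 UMIs, and 14 and 72 of them held at least 2200 genes. Summed plasma cell markers stood at 128701 and 31749 CPM in them. Ratios in these barcodes were 0.0590 for Lcn2, 0.177 for Retnlg, 0.305 for S100a8, 1.66 for Csf3r and 2.30 (1.72 to 3.04) for Cxcr4, each in the direction seen in the neutrophils of the cell table. Retnlg, S100a8 and Csf3r are among the 6 markers that chose these barcodes. The part of RNA from other cells in these ratios was not tested, so they are given as a description.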

How the results depend on the processing

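With 1 library per genotype, no replicate could be left out, and the intervals do not cover animals. No paired analysis was possible because each genotype has 1 library. Depth limits low genes in the library labelled transgenic. The counts of 649 higher and 370 lower genes depend on the settings: 1452 were higher by CPM ratio alone, 714 were lower after division by the median alone, 608 were lower with totals that leave out the 20 most abundant genes, and 1224 and 562 were called at 20 UMIs, 220 and 166 at 200 UMIs, 2263 and 737 with no minimum and 207 and 196 at 2-fold. They were 134 and 84 in cells with no Camp, Ltf, Ngp or Lcn2 UMI, 62 and 85 in the 7 and 32 cells with no UMI of 12 lineage markers, 158 and 150 with cells thinned, and 146 and 143 in cells of 1000 to 2500 UMIs. Fewer genes reached 50 UMIs in these 4 settings, at 720, 267, 872 and 1007.

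Of the dissociation and stress list 19 genes were higher by CPM ratio alone and 3 in cells with no Camp, Ltf, Ngp or Lcn2 UMI. Lower secondary granule genes numbered 9 of 10 in all cells of cluster 6, 0 of 2 in cells with no Camp, Ltf, Ngp or Lcn2 UMI (Ngp and Lcn2 being absent by that choice), 2 of 4 in cells with no lineage marker and 1 of 3 at 1000 to 2500 UMIs. Lower tertiary granule genes numbered 1 of 7, 5 of 7 and 3 of 8 in the last 3 of these settings. The ratio of shares turned round to 1.58 in cells with no Camp, Ltf, Ngp or Lcn2 UMI, and with these cells taken after thinning to 500 UMIs, a setting added after seeing the data, it was 0.845. Between the neutrophils and the other cells of cluster 6, thinning left 136 higher and 63 lower genes, of 738 with enough UMIs. S100a9 turned to 1.07 in cells with no Camp, Ltf, Ngp or Lcn2 UMI, and Cxcl2 (1.04), Tnf (2.16) and Vegfa (1.39) turned in cells with no lineage marker. Under the alternatives that can move the ratio of a single gene, 251 such ratios moved by less than their interval, 200 moved further and 4 turned round. The cause was not tested.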
